A study of Mus musculus with 3 samples.

Results

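The steady-state transcriptome of WT colonic macrophages was described from 1 of the 3 RNA-seq libraries of the study. All 23997 gene rows of the WT table were taken and ranked by FPKM (fragments per kilobase of transcript model, corrected for the mapped total), and 11079 of them were at or above 1 FPKM. Colonic cells with CD64, with little Ly6C and without Siglec-F were sorted from untreated male C57BL/6 mice given as 9 weeks of age in the protocol and 8.9 weeks in the sample record. The WT mice carried Lyz2-Cre and no floxed allele. The other mice carried the same Cre with Tle3 fl/fl (Tle3cKO) or Tle4 fl/fl (Tle4cKO), the alleles of 2 Groucho-family corepressors. Lyz2-Cre is active in macrophages and also in monocytes and neutrophils. Each genotype is 1 library made from pooled mice, 4 for WT, 3 for Tle3cKO and 4 for Tle4cKO. There is no replicate, so no value below has an SD, an interval or a test, and the order of genes with close values has no check. The other 2 libraries were used only to ask whether a gene kept its rank.

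Macrophages of the colonic lamina propria lie under the epithelium, take up bacteria and dying cells, and digest them in lysosomes. They are renewed from blood monocytes, which lose Ly6C and gain MHC class II, CD64 and other surface receptors as they mature. In the healthy gut they are known for class II antigen presentation, C1q, interleukin-10 and a muted cytokine output, and CSF1 receptor signals keep them alive.

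The sources used here give no fragment number. The product of FPKM and length was taken for 5034 genes above 0 with a single annotated transcript of at least 1500 bases. In a fixed range of low products, which held 179 genes, the commonest was 0.0625. Products below that range were not searched. A further peak at 0.1275, or 2.04 times that, was sought only in a fixed range just above. Its ratio to the first peak is thus no check on the step. If the lower peak is 1 fragment, the library held about 16000000 fragments, and 1 FPKM over 1 kilobase stands for about 16 fragments. Of all rows, 15791 were above 0, 5683 were at or above 10 FPKM, 867 at or above 100 and 89 at or above 1000. The share of rows at or above 1 FPKM was 46.2%, and the share of those that reached 100 FPKM was 7.83%. The median of the genes at or above 1 FPKM was 10.5 FPKM. Protein-coding genes held 95.4% of the summed FPKM.

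RNA of this library was concentrated in few genes. Cd74 alone held 3.80% of the summed FPKM, the 8 highest genes held 17.6%, the 100 highest held 41.0%, and 190 genes held 50%. The 8 leaders were Cd74 (23181 FPKM), Tmsb4x (17707), Ftl1 (14031), Fth1 (13102), H2-Aa (12118), H2-Ab1 (11186), Apoe (9287) and H2-Eb1 (7159). They belong to 4 functions. Cd74, H2-Aa, H2-Ab1 and H2-Eb1 encode the invariant chain and chains of the class II molecules that show peptides to CD4 T cells. Ftl1 and Fth1 encode the light and heavy chains of ferritin, which stores iron. Tmsb4x encodes thymosin beta-4, which binds actin monomers, and Apoe encodes the lipid carrier apolipoprotein E. After H2-Eb1 the curve dropped to 3994 FPKM for Rps27rt, a near copy of the ribosomal protein gene Rps27, so this value is uncertain. Of the 100 highest genes, 61 were in lists of translation, cytoskeleton and protein folding, 13 in surface lists, 10 in lists of metabolism and the lysosome, 9 in lists of secreted proteins, and none in lists of transcription factors. A gene can be in several lists, and 9 of the 100 were in none.

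**Figure D1:**
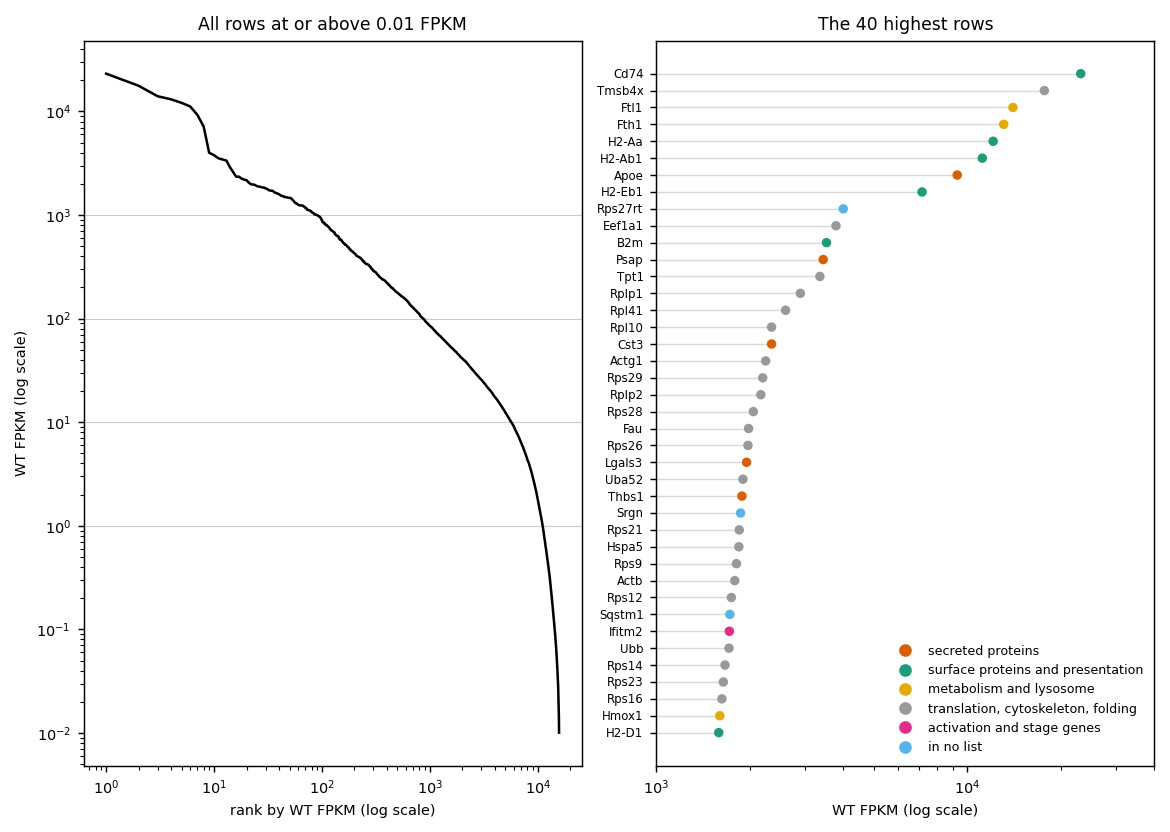
Left, WT FPKM against rank, both on log scales, for rows at or above 0.01 FPKM, with lines at 1, 10, 100 and 1000 FPKM. Right, the 40 highest rows with their WT FPKM on a log scale, coloured by class. The 8 highest rows, from Cd74 at 23181 to H2-Eb1 at 7159 FPKM, stand above a step to 3994 FPKM.

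The cell label was checked against 8 macrophage markers. Cd74 ranked 1 of all rows, and C1qb, C1qa and C1qc, the chains of complement C1q, ranked 52, 62 and 97. Csf1r, the receptor for CSF1 and interleukin-34, was at 458.5 FPKM (rank 184). Fcgr1, which encodes the sorting marker CD64, was at 33.3 FPKM, above 78.3% of the genes at or above 1 FPKM. The remaining 2 were low: Cx3cr1, the fractalkine receptor, was at 8.35 FPKM and Mertk, an efferocytosis receptor, at 4.46 FPKM, under the median of 10.5. Thus 6 of 8 markers were above that median. For the negative gates, Siglecf, listed under its older symbol Siglec5, was at 2.9 FPKM, and Ly6c2 was at 9.38 FPKM. Tle3 was at 38.6 FPKM and Tle4 at 8.5 FPKM in these cells, which carry both genes intact.

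Genes of other cells were measured in the same library and vary in how far they reach. The 21 dendritic cell genes were all at or above 1 FPKM (100% beside 46.2% of all rows), with a sum of 847.2 FPKM. Ccr7, which guides migration to lymph nodes, was at 305.5 FPKM, Cd209a at 63.1, the growth factor receptor Flt3 at 11.2 and the transcription factor Zbtb46 at 8.37. Of 20 fibroblast genes 18 (90%) were at or above 1 FPKM, among them Gsn (222), Dcn (81.8) and the collagen Col3a1 (54.1). Among 20 genes of B and plasma cells 19 (95%) reached 1 FPKM, led by Xbp1 (127.3), Igj (46.9) and Sdc1 (42.7). The B cell gene Ms4a1 was at 4.41 FPKM. Xbp1, Sdc1 and Gsn are also used by macrophages, and the source of the RNA of these lists was not tested. T cell genes were split: Il7r was at 337 FPKM and Cd4 at 71.8, while Cd3e was at 0.401, Cd3d at 0.63 and Cd3g at 0.748.

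Epithelial RNA was close to none. Only 3 of 35 colonic epithelial genes reached 1 FPKM, Ceacam1 (7.27), Car2 (3.8) and Epcam (1.19), and 16 were listed at 0, including Krt20 and Cdx2. Of 17 neutrophil genes 7 reached 1 FPKM. S100a9 and S100a8, which monocytes share, were at 84 and 81.4 FPKM, and the granule genes Camp and Elane were listed at 0. Eosinophil, mast cell and basophil genes reached 1 FPKM in 4 of 21 cases, with Epx and Prg2, the eosinophil granule proteins, listed at 0. Endothelial (15 of 19), smooth muscle (12 of 14) and enteric glial and neuronal genes (12 of 23) reached 1 FPKM, with list medians of 1.41, 3.72 and 1.11 FPKM. These shares were 78.9%, 85.7% and 52.2%, beside 46.2% of all rows. The share was 8.57% for the epithelial list, 41.2% for neutrophils and 19.0% for eosinophils, mast cells and basophils. The glial and neutrophil shares were thus near that of all rows. In a bulk library, fewer cells of a type and less RNA per cell cannot be told apart, and the part of these cells in the values below was not tested.

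MHC class II presentation was the largest list after the ribosomal proteins. Its 13 genes were all at or above 1 FPKM, beside 46.2% of all rows, and 8 reached 100 (61.5% beside 7.83% for all genes). They summed to 56530 FPKM, or 9.26% of the library. H2-Aa and H2-Ab1, the alpha and beta chains of I-A, were at 12118 and 11186 FPKM, a ratio of 1.08. H2-Ab1 was 1.56 times H2-Eb1, the beta chain of I-E. The level of Cd74, the chaperone that fills the class II groove during transport, was 1.91 times that of H2-Aa. Ctss, the protease that cuts the invariant chain, was at 1469 FPKM, and Ifi30, which reduces disulfide bonds of antigens, at 675.6. H2-DMb1 (303) and H2-DMa (269.3) encode the peptide exchange factor, and the chains of its inhibitor, H2-Ob and H2-Oa, were lower at 45.2 and 41.7 FPKM. Ciita, the coactivator that class II genes depend on, was at 14.4 FPKM, and H2-Eb2 was lowest at 5.87. Dendritic cells also carry class II, and their genes are given above.

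The promoters of these genes are shown because the members differ over 3 orders of magnitude in level and yet many share a short element. The 250 bases before the RefSeq start were searched on both strands for TGATTGG, the Y box bound by NF-Y. It was found in 7 of the 10 class II list genes that have a promoter in the table, against 8.62% of all 16687 promoters. It was also found in 8 of 19 folding genes and 5 of 16 class I genes. In the ribosomal protein, lysosomal, cathepsin, scavenger and paired receptor lists the share lay between 3.13% and 11.1%. The 7 class II list genes were H2-Aa, H2-Eb1, H2-Eb2, H2-DMb1, H2-DMb2, H2-Oa and H2-Ob. The windows below run from 50 bases before the motif to 15 after it, on the strand of the gene, 5′ to 3′, with the motif in capitals (RefSeq, GRCm38.p6), for the 5 genes whose window overlaps no exon of the annotation.
H2-Aa: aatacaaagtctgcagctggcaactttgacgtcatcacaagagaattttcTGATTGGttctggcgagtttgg
H2-Eb1: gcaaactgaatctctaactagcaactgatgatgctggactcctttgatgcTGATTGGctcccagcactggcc
H2-Ob: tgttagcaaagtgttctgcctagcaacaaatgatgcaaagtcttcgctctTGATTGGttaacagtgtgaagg
H2-DMb2: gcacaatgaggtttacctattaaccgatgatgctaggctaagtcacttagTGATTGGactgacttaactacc
H2-Eb2: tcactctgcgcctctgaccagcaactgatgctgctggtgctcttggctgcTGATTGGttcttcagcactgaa
The windows lie at chr17:34287852-34287923 on the minus strand for H2-Aa, and on the plus strand at chr17:34305756-34305827 for H2-Eb1, chr17:34238796-34238867 for H2-Ob, chr17:34145107-34145178 for H2-DMb2 and chr17:34325523-34325594 for H2-Eb2. The motif began 50 bases before the start in H2-Aa and 61 in H2-Eb1, and 102 in H2-Eb2, which was at 5.87 FPKM. The same 7 letters were thus found before the genes at 12118 and at 5.87 FPKM. A match is a description and not a bound site.

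MHC class I presentation was lower, at 1.5% of the summed FPKM. B2m, the invariant light chain, was at 3528 FPKM, and the heavy chains H2-D1 and H2-K1 were at 1589 and 1275. Of 28 genes 25 reached 1 FPKM, or 89.3% beside 46.2% of all rows. Of those 25 genes 10 reached 100, or 40% beside 7.83% for all genes. The peptide transporter genes Tap1 and Tap2 were at 44.6 and 42 FPKM, and Nlrc5, the class I coactivator, was at 8.95. Heavy chain genes are near copies of each other, so H2-L (22.9) and the H2-Q rows are uncertain.

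Across the surface lists as a class, 362 of 461 genes reached 1 FPKM and 76 reached 100, which is 21.0% of those measured beside 7.83% for all genes. They held 14.7% of the summed FPKM, of which Cd74, H2-Aa and H2-Ab1 made up 51.8%. Outside antigen presentation the highest were Cd14, Tyrobp and Il1r2. Cd14, the lipopolysaccharide co-receptor, was at 1302 FPKM and was 83.7 times its signalling partner Tlr4 (15.6). Of the 27 pattern recognition genes 25 reached 1 FPKM, and Cd14 and the inflammasome sensor Nlrp3 (126.6) reached 100, which is 8.0% of those measured and close to the 7.83% of all genes. Among Toll-like receptors the nucleic acid sensors Tlr9 (71.3) and Tlr7 (61.8) were highest, and Tlr3 (0.873) and Tlr11 (0.832) were under 1 FPKM.

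Signalling adaptors stood above the receptors they serve. Tyrobp, the adaptor also called DAP12, was at 1174 FPKM, 45.3 times its partner Trem2 (25.9). Fcer1g, the common gamma chain of activating Fc receptors, was at 844.6 FPKM, 25.4 times Fcgr1. Fcgr3 (211.8) and the inhibitory Fcgr2b (191.8) were the most abundant receptors for IgG, and Fcgr4 was at 91.9. Among growth factor receptors, Csf2rb, the beta chain shared by GM-CSF, interleukin-3 and interleukin-5 receptors, was at 975.3 FPKM, and Csf2ra, which gives GM-CSF specificity, at 351.3. Csf2rb2, a close copy of Csf2rb, was at 448.1, and the division of reads between these copies is uncertain. Csf1r was 73.8 times its ligand Csf1, which was at 6.22 FPKM.

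For cytokine receptors, 42 of 48 genes reached 1 FPKM, or 87.5% beside 46.2% of all rows. Of those 42 genes 9 reached 100, or 21.4% beside 7.83% for all genes. Il1r2, a decoy that binds interleukin-1 without signalling, was at 1092 FPKM, 37.4 times the signalling receptor Il1r1 (29.2). Il10ra, which gives cells their response to interleukin-10, was at 85.9 FPKM and its partner Il10rb at 131.8. Il7r, Il2rg (149.9), Il4ra (142.3) and Ifngr1 (130.6) were also above 100 FPKM. Tgfbr1 and Tgfbr2, the receptor chains for TGF-beta, were at 53 and 31.6 FPKM. In the TNF receptor family 18 of 28 reached 1 FPKM, led by Tnfrsf1b (170.3) and Tnfrsf1a (119.2), the receptors for TNF. That is 64.3% of the family, and 11.1% of those 18 genes reached 100.

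Of 23 chemokine receptors 16 reached 1 FPKM, or 69.6% beside 46.2% of all rows. Of those 16 genes 4 reached 100, or 25% beside 7.83% for all genes. Cxcr4, the receptor for Cxcl12, was at 321.3 FPKM, Ccr7 at 305.5, and Ccr1, a receptor for Ccl3 and Ccl5, at 172.4. Ccr2, which brings monocytes into tissue, was at 28.3 FPKM, above Cx3cr1 at 8.35. The median of the list was 3.62 FPKM.

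Receptors for uptake were spread over the whole range. Cd68, a lysosomal glycoprotein, was at 495.2 FPKM, the fatty acid receptor Cd36 at 190.3, the phosphatidylserine receptor Havcr2 at 151.5 and Axl at 100.4. Mrc1, the mannose receptor, was at 90.3 and Timd4 at 31.8, while Cd163 was at 2.92, Marco at 0.436 and Cd5l at 0.0625 FPKM. Of 33 such genes 24 reached 1 FPKM, or 72.7% beside 46.2% of all rows. Of those 24 genes 5 reached 100, or 20.8% beside 7.83% for all genes. C-type lectins were led by Clec7a, the beta-glucan receptor also called dectin-1 (407.4), and Clec4n, or dectin-2 (358.7), followed by Clec4d (190.3) and Mgl2 (152.4). Complement receptors C5ar1 (230.5) and C3ar1 (108.9) and the leukocyte integrin chains Itgb2 (197.8), Itgax (170.8) and Itgam (92.5) were measured at like levels. Emr1, which encodes F4/80, was at 150.4 FPKM. Vsig4, a complement receptor of other tissue macrophages, was listed at 0.

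Costimulatory ligands and membrane organisers completed the surface. Cd86, a ligand of CD28, was at 367.2 FPKM, 4.67 times Cd80 (78.6), and Cd274, which encodes PD-L1, was at 224.1. Tetraspanins reached 702.1 for Cd63, 535.7 for Cd9 and 384.2 for Cd53, with 7 of 27 at or above 100. The inhibitory receptor Lilrb4 and Gp49a, near copies of each other, were at 344.5 and 242.4 FPKM, and Cd300a was at 115.3. Ms4a7 (259.5) and Ms4a6d (159.2) led the MS4A family, of which 7 of 16 members were listed at 0.

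**Figure D2:**
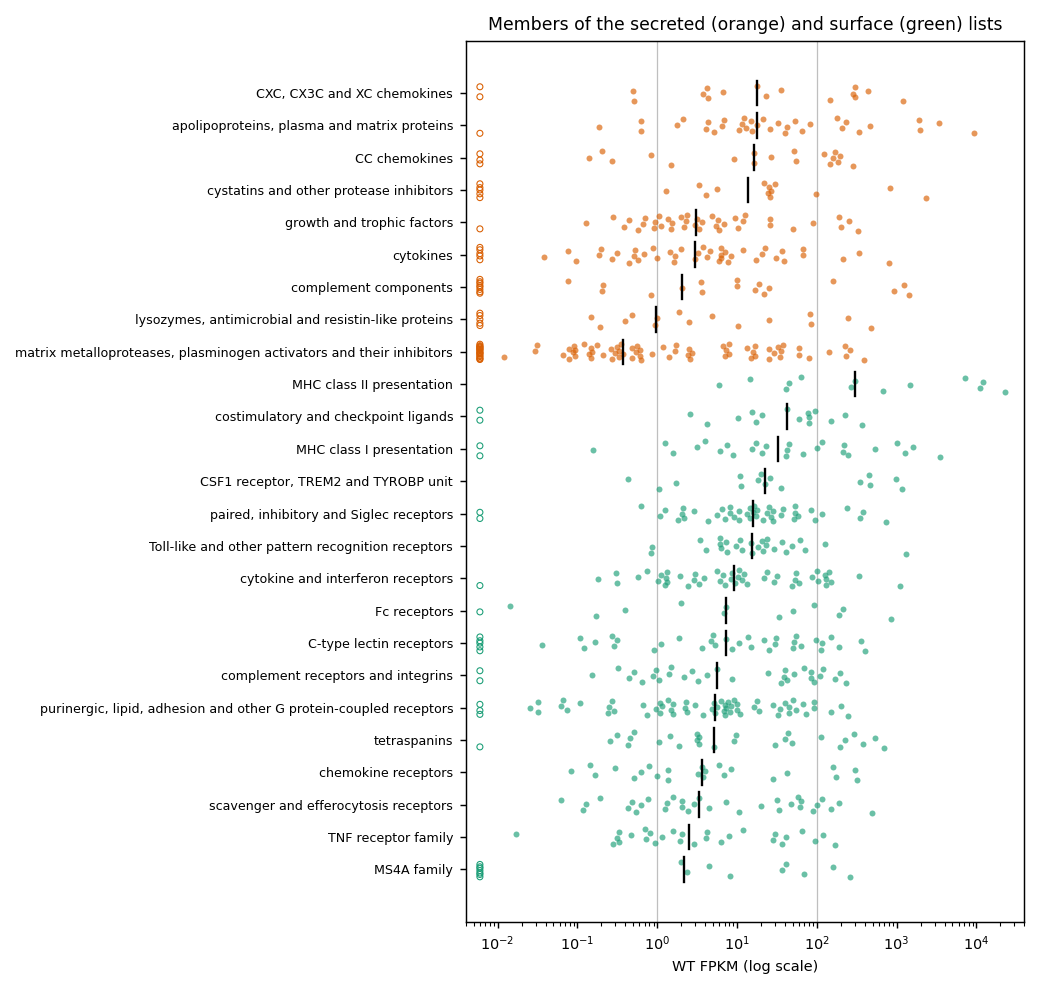
WT FPKM on a log scale for every gene of the secreted lists (orange) and surface lists (green). Each point is 1 gene, bars are list medians, open circles are genes under 0.01 FPKM or listed at 0, and lines mark 1 and 100 FPKM. The class II list has the highest median, 303 FPKM, and no gene under 1 FPKM.

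The listed secreted proteins had a higher share of abundant members than all genes. These lists, like the surface and metabolism lists, were chosen with earlier results of these data known. The shares thus describe the lists only. In the secreted class 184 of 306 genes reached 1 FPKM (60.1% beside 46.2% of all rows). Of those 184 genes 42 reached 100, which is 22.8% beside 7.83% for all genes. They held 5.86% of the summed FPKM, and Apoe alone made up 25.9% of that. Psap, the precursor of the saposins that help lysosomal lipid breakdown, was at 3443 FPKM, a level that Apoe exceeded 2.7 times. Cst3, the cysteine protease inhibitor cystatin C, was at 2349, Lgals3, or galectin-3, at 1952 and Thbs1, or thrombospondin-1, at 1886. Sepp1, the selenium carrier selenoprotein P, was at 468.5. Several collagens and Dcn in this class are also fibroblast genes, with values given above.

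Complement was nearly all C1q. C1qb, C1qa and C1qc were at 1443, 1243 and 936.4 FPKM and held 93.0% of the list. The 3 genes lie side by side on chromosome 4 of mm10, C1qb at 136880129 to 136886187, C1qc at 136889804 to 136893065 and C1qa at 136895917 to 136898803. C1qb was 1.54 times C1qc and 1.16 times C1qa. Their partner proteases and substrates were far lower: C1s1 was at 16.7, C1ra at 9.92, C4b at 21.8 and C3 at 25.4 FPKM. Cfp, or properdin, which stabilises the alternative pathway convertase, was at 159. Of the terminal components, C6 was at 3.66 FPKM and C8a, C8b and C9 were listed at 0.

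Cytokine genes were dominated by the interleukin-1 system. Il1b was at 814.5 FPKM, 39.4 times Il1a (20.7). The antagonist Il1rn was at 340.5, or 0.418 of Il1b, and the decoy Il1r2 was 1.34 times Il1b. Mif was at 211.6, Tnf at 68.1, Il10 at 66.3 and Il6 at 22.5. Il12b, a subunit of interleukin-12 and interleukin-23, was at 4.61 FPKM. Of 47 cytokine genes 28 reached 1 FPKM, or 59.6% beside 46.2% of all rows, and the list median was 2.94 FPKM. Of those 28 genes 3 reached 100, or 10.7% beside 7.83% for all genes. A high Il1b transcript level was thus measured beside both of its extracellular inhibitors.

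Chemokines were more evenly spread. Cxcl2, a neutrophil attractant, was at 1205 FPKM, 4.05 times Cxcl1 (297.5), with Cxcl3 at 442.5. Pf4 was at 305.4 and Cxcl16 at 281.9. Among 21 CC chemokines 14 reached 1 FPKM, or 66.7% beside 46.2% of all rows. Of those 14 genes 7 reached 100, or 50% beside 7.83% for all genes. These were Ccl5 (283.4), Ccl4 (196.3), Ccl6 (182.8), Ccl3 (168.1), Ccl9 (161.3), Ccl17 (145.1) and Ccl22 (121.7). Ccl17 and Ccl22 are the ligands of Ccr4, which was at 0.165 FPKM, and dendritic cells also make them. Ccl20 was listed at 0 and Ccl2, the main monocyte attractant, was at 51.2 FPKM.

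Growth factors and matrix enzymes formed a middle band. Tgfb1 was at 331.2 FPKM, 68.1 times Tgfb3 (4.86), and Grn, or progranulin, was at 253.2. Gdf15 was at 203.9, Vegfa at 189.7 and Wnt11 at 90.5 FPKM. Igf1, which macrophages of many tissues make, was at 1.99. Among metalloproteases, Mmp19 (390.4), Mmp13 (262.8), Adam8 (231), Mmp12 (222.6) and Mmp14 (144.1) reached 100 FPKM, while Mmp9 was at 13.3. Of the 83 genes of that list 33 reached 1 FPKM, or 39.8% beside 46.2% of all rows, and 15.2% of those measured reached 100 beside 7.83%. Lyz1 was at 476.1 FPKM and Lyz2 at 10.4, a ratio of 45.9. The lysozyme genes are near copies of each other at neighbouring sites on chromosome 10, so the split between them is uncertain. The mice of every library carried Lyz2-Cre. Lyz2 ranked 5567 in WT, and 5185 and 5319 in the libraries labelled Tle3cKO and Tle4cKO. The part of the Cre allele in the low Lyz2 level, and so in the ratio, was not tested. Retnla, or RELM-alpha, was at 242.9 and Slpi, a protease inhibitor, at 24.9 FPKM.

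Transcription factors held 1.81% of the summed FPKM. Of 234 genes 185 reached 1 FPKM, or 79.1% beside 46.2% of all rows. Of those 185 genes 27 reached 100, or 14.6% beside 7.83% for all genes, and none reached 1000. The highest was Junb at 730.2 FPKM. The lineage factors Cebpb and Spi1 were close, at 543.1 and 491.2 FPKM. Spi1, or PU.1, is required to make macrophages. Maf, a factor of mature macrophages, was at 25.1. Id2 (268), Bhlhe40 (193.4), Irf5 (174.9), Irf8 (136.4), Runx3 (122) and Zeb2 (118.3) were also at or above 100 FPKM. Factors of other lineages were low, with Gata3 at 0.747, Gata2 at 0.702, Myb at 0.653 and Gata6 at 0.0209 FPKM.

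Stimulus-dependent factors made up most of the rest. Atf4, the integrated stress response factor, was at 439.7 FPKM, Fos at 342.6, Crem at 335.8, Klf6 at 333.8, Atf3 at 173 and Jun at 163.1. Nfe2l2, or NRF2, the antioxidant response factor, was at 165.1. Beside them stood the immediate early genes that tissue digestion is known to induce. All 40 of that list reached 1 FPKM, beside 46.2% of all rows, and 25 reached 100 (62.5% beside 7.83% for all genes). Zfp36 (682.7), Hspa1b (358.6), Hspa1a (328.3), Dusp1 (245.9) and Egr1 (159.9) were among the 25. The part of cell isolation in these levels was not tested. NF-kB subunits and inhibitors were all present, with Nfkbia at 248.4, Nfkb1 at 196.7, Rel at 156.4 and Nfkb2 at 127, above Rela at 67.8. Stat3, which carries the interleukin-10 signal, was at 155.5 FPKM and Stat6 at 55.3.

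Nuclear receptors were measured about as often as genes in general. Of 47 genes 22 reached 1 FPKM, or 46.8% beside 46.2% of all rows, and none reached 100. The median of those 22 was 16.6 FPKM, beside 10.5 for all genes at or above 1 FPKM. The highest were Nr4a3 (95.3), Nr4a1 (76.5), the oxysterol receptor Nr1h2 (48.5) and the vitamin D receptor Vdr (38.9). Pparg was at 23.5 and Nr3c1, the glucocorticoid receptor, at 23.8 FPKM. The aryl hydrocarbon receptor Ahr, a sensor of dietary and bacterial ligands, was at 82.3. Among Groucho-family and partner genes Aes was at 83.5, Rbpj at 56.6, Hes1 at 49.3, Tle3 at 38.6, Runx1 at 38.6, Tle1 at 34.3, Tle4 at 8.5 and Tle2 at 1.43 FPKM.

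**Figure D3:**
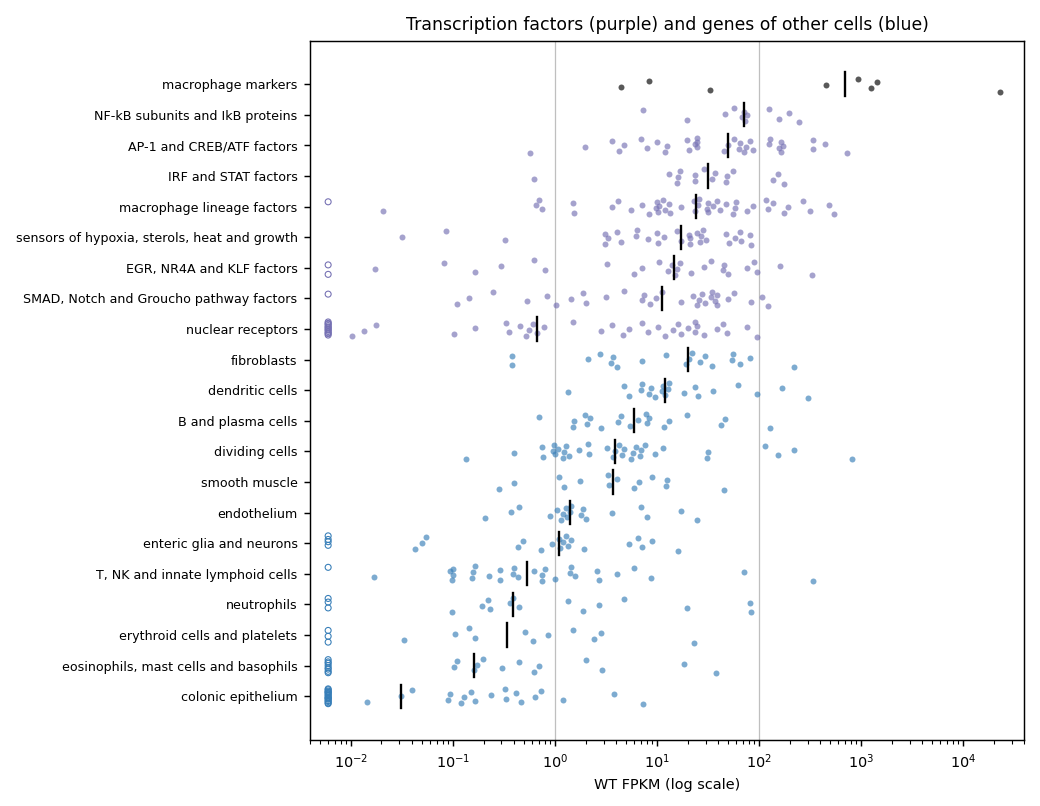
WT FPKM on a log scale for the 8 macrophage markers (black), the transcription factor lists (purple) and lists of other cells (blue). Each point is 1 gene, bars are medians, open circles are genes under 0.01 FPKM or listed at 0, and lines mark 1 and 100 FPKM. Fibroblast and dendritic cell lists have the highest medians among other cells and colonic epithelium the lowest.

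Iron handling led the metabolic lists. The list summed to 30860 FPKM, or 5.05% of the library, of which Ftl1, Fth1 and Hmox1 made up 93.1%. Ftl1 was 1.07 times Fth1. Hmox1, which opens haem and frees its iron, was at 1601 FPKM, 51.3 times Hmox2. The iron exporter Slc40a1, or ferroportin, was at 61.5, the lysosomal metal transporter Slc11a1 at 334.3, and the uptake receptor Tfrc at 9.14 FPKM. Cyba and Cybb, the membrane chains of the phagocyte oxidase, were at 577.4 and 185.5. Storage and haem breakdown were thus high beside uptake by transferrin. Ferritin genes have many processed copies in the genome, so their values are uncertain to that extent.

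Antioxidant genes included many targets of NRF2. Prdx1, a peroxidase, was at 1464 FPKM, Txnrd1, thioredoxin reductase, at 511.3, Sod1 at 506.3, Srxn1, which repairs peroxiredoxins, at 484.8, and the cystine transporter Slc7a11 at 187.8. Of 53 genes 41 reached 1 FPKM, or 77.4% beside 46.2% of all rows. Of those 41 genes 14 reached 100, or 34.1% beside 7.83% for all genes. Gclc and Gclm, the subunits of the enzyme that starts glutathione synthesis, were at 99.8 and 86.6 FPKM.

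The lysosome was the other large compartment. Ctss, Lgmn (1075), Ctsz (1007) and Ctsb (963.5) led the cathepsin list, followed by Ctsd (401.7), Ctsc (308.3) and Ctsl (255.8), and 10 of 23 genes reached 100. Ctsk, the protease of osteoclasts, was at 5.27 FPKM, and Ctsg was listed at 0. All 45 lysosomal hydrolase and membrane genes reached 1 FPKM and 17 reached 100, led by Laptm5 (779.5), Cd63, Cd68, Lamp1 (490) and Acp5 (419.6). The vacuolar proton pump, which acidifies the lysosome, had 18 of 25 genes at or above 1 FPKM and 14 at or above 100. Its proteolipid Atp6v0c was at 1231, and isoforms of other tissues such as Atp6v1b1 and Atp6v0a4 were listed at 0. For cathepsins, hydrolase and membrane genes, and the pump, 69.6%, 100% and 72% reached 1 FPKM, beside 46.2% of all rows. In the same order 62.5%, 37.8% and 77.8% of the measured genes reached 100, beside 7.83% for all genes. The sequence TCACGTG, the core of the element bound by TFEB, stood in 8 of 37 hydrolase and membrane promoters and in 3.79% of all promoters of the same length. It stood in 1 of 18 cathepsin promoters (5.56%), that of Ctsd, and in 6.37% of the promoters of genes at or above 100 FPKM. The higher share was thus measured for the hydrolase and membrane list and not for the cathepsins.

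Lipid handling was led by transport and storage rather than synthesis. After Apoe, Lipa, the lysosomal acid lipase, was at 281.7 FPKM, the lipid droplet protein Plin2 at 280.9, the cholesterol carrier Npc2 at 271.9 and the exporter Abca1 at 99.6. All 24 cholesterol synthesis genes reached 1 FPKM, beside 46.2% of all rows. None reached 100, beside 7.83% of all measured genes. For fatty acids, 28 of 30 genes reached 1 FPKM (93.3%) and only Elovl5 (103.5) reached 100 (3.57% of the 28). Cpt1a, which admits fatty acids to mitochondria, was at 19.2 and Fasn at 10.8 FPKM. In eicosanoid synthesis Pla2g7 (508.6) and Ptgs2, or COX-2 (279.9), were highest. Ptgs2 was 4.2 times Ptgs1, while Alox5 was at 4.25 and Ptges at 0.967 FPKM.

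The arms of energy metabolism had overlapping levels. In glycolysis 26 of 28 genes reached 1 FPKM and 8 reached 100, the list median was 35 FPKM, and the highest were Gapdh at 707.5, Pkm at 462.5, Aldoa at 400.5 and Ldha at 246.5 FPKM. None of 29 tricarboxylic acid cycle genes reached 100, with Mdh2 highest at 99.1 and a list median of 30.3 FPKM. Complex I had a median of 44.3 and 3 of 38 genes at or above 100. Complexes II to IV with cytochrome c had a median of 70.9 and 13 of 32 genes at or above 100, led by Cox4i1 (414.5). ATP synthase had a median of 184 and 14 of 20 genes at or above 100. Of all rows 46.2% reached 1 FPKM, beside 92.9% of the glycolysis list. Of the measured genes 30.8% reached 100 in glycolysis and 8.11% in complex I. These shares were 48.1% in complexes II to IV and 73.7% in ATP synthase, beside 7.83% for all genes. In the pentose phosphate pathway Taldo1 was at 576 and G6pdx, the entry enzyme, at 55.6. Slc2a1, the glucose transporter GLUT1, was at 38.6 FPKM. Arg1 and Nos2, the arginine enzymes that mark opposed activation states in culture, were at 0.296 and 0.194 FPKM, under the level of measured genes used here. Polyamine genes were high, with Sat1 at 504.1 and Odc1 at 443.9.

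Metabolism as a class held 13.5% of the summed FPKM. Of its 477 genes 416 reached 1 FPKM and 118 reached 100, which is 28.4% of those measured beside 7.83% for all genes. Ftl1 and Fth1 with Apoe made up 44.1% of it. Apoe is also counted with the secreted proteins and Ctss with class II presentation.

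**Figure D4:**
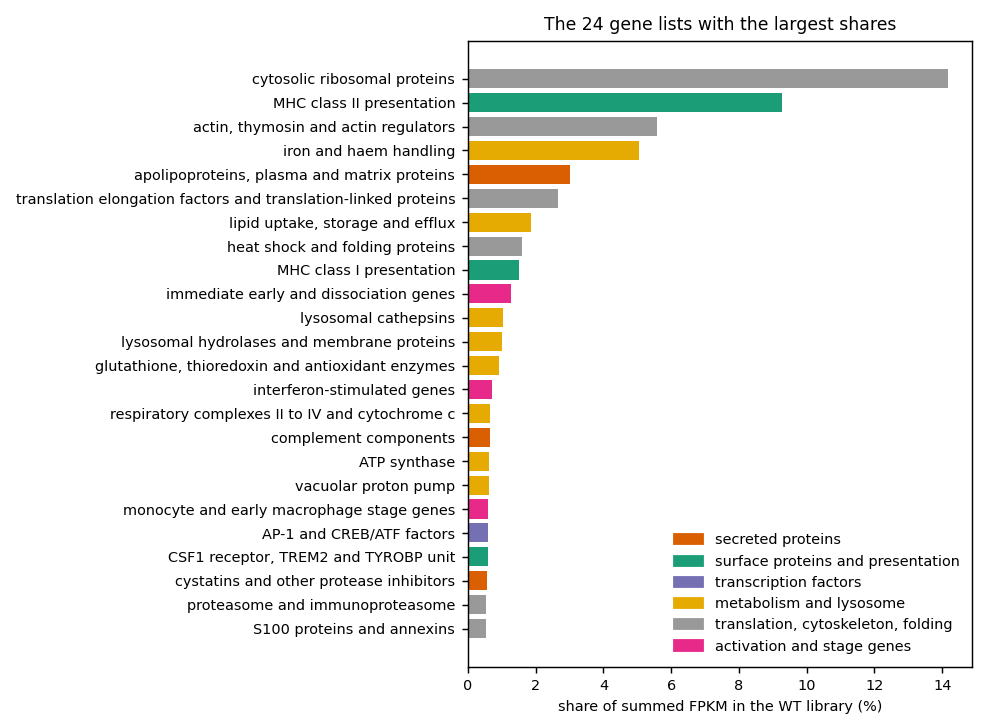
Share of the summed WT FPKM held by the 24 gene lists with the largest shares, coloured by class. Cytosolic ribosomal proteins hold 14.2%, class II presentation 9.26%, actin and thymosin genes 5.59% and iron handling 5.05%; some genes are in more than 1 list.

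Genes of translation, cytoskeleton and folding made up 25.1% of the summed FPKM. Cytosolic ribosomal protein genes held 14.2%, with a median of 1007 FPKM over 85 rows and Rplp1 highest at 2907. Transcripts of ribosomal proteins begin with a C and a run of pyrimidines. By the RefSeq starts, C with 4 more pyrimidines opened 12 of 63 of them and 2.27% of all genes with a promoter in the table. Eef1a1, the elongation factor, was at 3784 and Tpt1 at 3360. Among actin genes Tmsb4x made up 51.9% of the list and was 23.1 times Tmsb10. Actg1 (2248) was 1.26 times Actb (1788), and Vim, an intermediate filament of mesenchymal and myeloid cells, was at 1173.

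Chaperones of the endoplasmic reticulum were among the highest folding genes. Hspa5, or BiP, was at 1843 FPKM, Calr at 1015, Hsp90b1 at 810.4, Pdia3 at 543, Pdia6 at 357.9 and Canx at 245.7. Their promoters are shown because several hold the same long element, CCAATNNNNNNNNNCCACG, known as the endoplasmic reticulum stress element, which is read by ATF6 with NF-Y. It was found on either strand in 5 of 19 folding genes with a promoter in the table (Hspa5, Hsp90b1, Pdia6, Calr and Canx) and in 0.156% of all promoters, 26 in number. Of those 26, 7 belonged to genes at or above 100 FPKM (1.06% of that group), the other 2 being Creld2 and Hnrnpa3. Genes between 10 and 100 FPKM held 2 and those between 1 and 10 held 3. Genes under 1 FPKM held 14 (0.169% of that group). In the windows below, with 20 bases on each side, the element is in capitals, on the strand of the gene.
Hsp90b1: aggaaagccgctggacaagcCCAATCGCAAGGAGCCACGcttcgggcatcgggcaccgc
Hsp90b1, further match on the opposite strand: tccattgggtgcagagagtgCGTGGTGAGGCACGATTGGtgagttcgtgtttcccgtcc
Pdia6: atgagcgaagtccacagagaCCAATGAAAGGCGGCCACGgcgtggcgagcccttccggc
Calr, match on the opposite strand: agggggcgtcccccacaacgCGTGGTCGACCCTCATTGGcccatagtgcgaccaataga
Canx: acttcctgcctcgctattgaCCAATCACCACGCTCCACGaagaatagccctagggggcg
They lie at chr10:86705618-86705676 and chr10:86705513-86705571 (minus strand) for Hsp90b1, chr12:17266471-17266529 (plus) for Pdia6, chr8:84847055-84847113 (minus) for Calr and chr11:50325780-50325838 (minus) for Canx, in GRCm38.p6. Hsp90b1 held the element at 2 places, beginning 212 and 107 bases before the start. The window of Hspa5 overlaps an annotated exon and is not printed. Of the factors of this response, Xbp1 was at 127.3, Atf4 at 439.7, Ddit3 at 64.4 and Atf6 at 24.9 FPKM.

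Promoters also differed with level as a whole. The median number of CG pairs in the 250 bases before the start was 16 for genes at or above 100 FPKM, 17 between 10 and 100, 15 between 1 and 10, and 4 for genes under 1 FPKM. GGGCGG, the core of the site for Sp1, stood in 57.7%, 64.3%, 56.1% and 27.1% of these groups. The class II genes went the other way, with a median of 2.5 CG pairs and GGGCGG in 2 of 10. This was not particular to them. Paired, inhibitory and Siglec receptors had a median of 2 and GGGCGG in 4 of 32, and scavenger and efferocytosis receptors 3 and 8 of 26. Medians were 7 for cathepsins, 8.5 for class I presentation and 9 for lysosomal hydrolase and membrane genes. Ribosomal protein and folding genes had medians of 17 and 24. TATAAA between 40 and 20 bases before the start was found in 3.95% of genes at or above 100 FPKM and 4.23% of those under 1 FPKM, and in 1.07% and 0.698% of the groups between.

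Markers of both maturation stages were measured, with a higher median for the monocyte and early macrophage list. That median was 35.8 FPKM, beside 5.33 for the long-lived resident list. Shares at or above 1 FPKM were 92% and 80%, beside 46.2% of all rows. Of the measured genes 26.1% and 12.5% reached 100, beside 7.83% for all genes. Of 25 monocyte and early macrophage genes 23 reached 1 FPKM, with Thbs1 at 1886, Lyz1 at 476.1, S100a4 at 249.9, S100a6 at 218.8 and Plac8 at 146.3, while Chil3 was at 2.5. The split between Lyz1 and Lyz2 is uncertain, as given above. Of 20 markers of long-lived resident cells 16 reached 1 FPKM, with Sepp1 at 468.5, Pf4 at 305.4 and Mrc1 at 90.3, while Folr2 was at 7.34, Lyve1 at 2.03 and Vsig4 was listed at 0. All 51 interferon-stimulated genes reached 1 FPKM, though the list median was 17.5. Of them 7 reached 100, or 13.7% beside 7.83% for all genes. Ifitm2, which blocks virus entry, made up 40.1% of that list at 1718 FPKM, followed by Ifitm3 (655.5), and Isg15 was at 164.4. Of 35 dividing-cell genes 29 reached 1 FPKM and 4 reached 100, namely H2afz (810), Tuba1b (220.3), Pcna (154.5) and Cenpa (115.6). That is 13.8% of those measured, beside 7.83% for all genes. The median of that list was 3.92 FPKM, and the cycle genes Mki67 and Top2a were at 4.71 and 5.53.

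Ranks were largely kept in the other libraries. A rank was called kept where it lay between the WT rank divided by 1.5 and the WT rank times 1.5, which is a wide span for low genes. It was kept in the library labelled Tle3cKO for 99.4% of the genes at or above 1 FPKM and in the library labelled Tle4cKO for 99.5%. The library labelled Tle3cKO had Tle3 itself at rank 1176, a higher place than its WT rank of 2140, so this gene did not bear out that label. Which exons the floxed allele removes is not given in the labels, and a gene-level value need not show their loss. Tle4 ranked 6153 in WT and 7248 in the library labelled Tle4cKO. Of the 100 highest WT genes, 98 were in the top 100 of the library labelled Tle3cKO and 97 in that of Tle4cKO, and 96 were in both. Cd74 ranked 1 in all 3 libraries. Rps27rt and Eef1a1 also held ranks 9 and 10 in all 3.

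Only 5 of the 100 did not keep their rank in both other libraries. Tmsb4x, at rank 2 in WT, was at rank 7 in each of the others, and all of Ftl1, Fth1, H2-Aa, H2-Ab1 and Apoe stood above it there. In the order WT, Tle3cKO label and Tle4cKO label, Actb ranked 31, 91 and 45, Hspa5 ranked 29, 17 and 20, Cxcl2 ranked 68, 43 and 73, and Vim ranked 71, 40 and 62. Of the 184 secreted protein genes at or above 1 FPKM, 172 and 178 kept their rank (93.5% and 96.7%), and of 362 surface protein genes 351 and 358 did (97.0% and 98.9%), beside 99.4% and 99.5% for all genes. The difference between these shares was not tested. Tlr7 ranked 1360, 2676 and 3155 in the same order and kept its rank in neither library. Among the leaders of these classes C1qb ranked 52, 64 and 60, Cd14 ranked 57, 54 and 54, and Il1r2 ranked 79, 67 and 98. For class II presentation all 13 genes kept their rank in both libraries. For transcription factors 183 of the 185 genes at or above 1 FPKM did so in each library. The CC chemokines kept it in 11 and 12 of 14 cases, and among them Ccl17 ranked 629, 1716 and 1230 in the same order. Each other genotype is also 1 pooled library, so a moved rank has no replicate check.

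**Figure D5:**
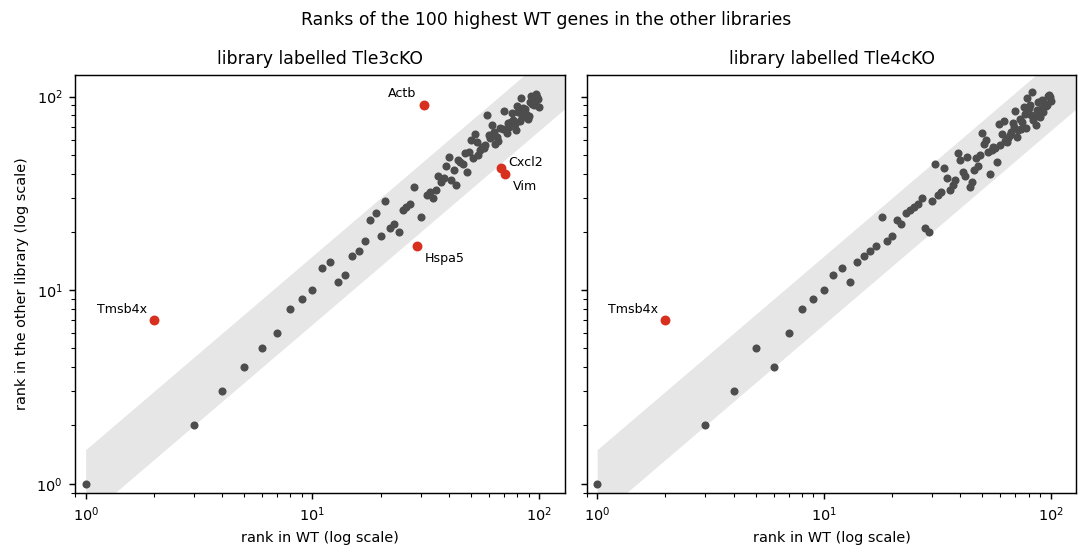
Rank of the 100 highest WT genes in the library labelled Tle3cKO (left) and Tle4cKO (right) against the rank in WT, both on log scales. The grey band spans the WT rank divided by and times 1.5; named red points lie outside it. Tmsb4x moves from rank 2 to rank 7 in both.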

How the data were processed

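RNA-seq was made from colonic macrophages of 3 genotypes, 1 pooled library each, and the WT library was described here. The authors deposited FPKM per gene, 1 table of 23997 rows per library, per the file headers. The submitters' processing notes name mm10 as the build, TopHat2 (version 2.1.0) and Cufflinks (version 2.2.1), with no role for either. The sources used here do not give read length, strandedness or annotation. FPKM is per transcript length, so genes of 1 library can be compared as molecules, within the limits of the transcript models. Cufflinks estimates the division of reads among near copies, so near-identical, overlapping and antisense genes are uncertain. Rows joining several symbols numbered 104. An exact 0 can be a failed estimate, so the text writes that such genes were listed at 0. Because the values are not counts and each group is 1 library, no test was run.

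Rows were ranked by WT FPKM. Genes were grouped in 71 lists of 7 classes, 1993 genes in all, and 13 listed symbols had no row and were not analysed here. The members, lists, motifs and pairs of genes compared were chosen with earlier results of these data known. Genes were counted at or above 1 and 100 FPKM. A rank was kept within a factor of 1.5 in another library. Genes were named by a rule: the 40 highest rows, the 12 highest of each class, the 5 highest of each list with the lowest of closed families, defining genes of other cells, the markers, and genes of the top 100 whose rank was not kept. Other members of the lists named for their role, such as receptors, ligands and partners, were chosen after their values were seen. Of all rows 22395 (93.3%) matched GENCODE release M21 by symbol and position. Promoters are RefSeq's for GRCm38.p6, with 16687 genes matched by symbol and chromosome, and the 250 bases before the start were searched. The ranking step was tested on simulated data. Python 3.11.15, numpy 2.4.6, pandas 2.3.3 and matplotlib 3.10.9 were used. Alternatives tried were other thresholds, rank factors and list sizes, leaving out small RNA, unnamed and receptor segment rows, joined rows or ribosomal protein genes, and weighting by transcript length. Some genes that the rule takes are left out of the text.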

Additional observations from a re-analysis of the deposited data

How the results depend on the processing

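No paired analysis was possible because each genotype is 1 pooled library and no test was made. With 1 library, precision cannot be measured, and levels near 1 FPKM rest on few fragments. Of 57 alternative values, 44 stayed within 1.5 times the reported value. The other 13 came from another threshold, another list size or the weight by transcript length. Counts were compared as raw numbers, which change with the threshold or list size by design. The 44 of 57 is therefore no measure of robustness.

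Without small RNA, unnamed and receptor segment rows the shares of summed FPKM were 5.98% for secreted proteins, 14.96% for surface proteins, 1.85% for transcription factors, 13.7% for metabolism and 9.44% for class II presentation. Without ribosomal protein genes they were 6.83%, 17.1%, 2.11%, 15.8% and 10.8%. With FPKM times transcript length they were 5.14%, 11.7%, 2.72%, 10.9% and 6.00%.

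At 50 in place of 100 FPKM the top band held 116 surface genes, 55 transcription factors and 188 metabolic genes, and at 200 FPKM it held 45, 10 and 69. The top 50 shared 46 genes with the library labelled Tle3cKO and 48 with Tle4cKO, and the top 200 shared 190 and 194. Of the top 100, 61 were also in the top 100 by FPKM times length.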

Other observations

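Some of the highest genes belong to none of the lists, and they were chosen after their values were seen. Srgn, the core protein of granule proteoglycans, was at 1867 FPKM (rank 27). Sqstm1, the autophagy receptor p62 and a target of NRF2, was at 1724 FPKM (rank 33). Ptma was at 1234, Crip1 at 1113 and the metallothionein Mt1 at 989.5 FPKM. Rgs1, which damps G protein-coupled receptor signals, was at 795.1, and Mpeg1, the pore-forming protein perforin-2 of macrophages, was at 630.3. Slc15a3, a peptide transporter of the endolysosome, was at 626.4 FPKM, and Slc3a2, the heavy chain partner of Slc7a11, at 591.3.

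Weighting FPKM by transcript length, which approximates the fragments each gene took, changed the leaders less than the rest. Cd74 took 2.59% of the fragments so estimated, Fth1 1.55% and H2-Aa 1.08%. Thbs1, with a transcript of 5848 bases, moved from rank 26 to 9, and Csf2rb, with 4900 bases, from 94 to 13. The 8 leading genes were the same under both orders.

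Snora81, a small nucleolar RNA within another gene, ranked 119 in WT at 730.3 FPKM and ranked 15896 and 16084 in the libraries labelled Tle3cKO and Tle4cKO. Among the other genes at or above 100 FPKM in WT, the lowest place in another library was rank 1716, of Ccl17. FPKM of RNAs this short depend on few fragments and on the length used.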
